A study of Drosophila melanogaster with 25 samples.

Results

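RNA of eye-brain complexes dissected from wild-type L3 larvae of Drosophila melanogaster (L3 is the last larval stage) was compared with RNA of whole wild-type embryos aged 16–20 h. The comparison rests on 7 of the 25 libraries of the series, 3 of eye-brain complexes and 4 of embryos. They were chosen by genotype, tissue and instrument. All 7 came from w1118 animals kept at 25 C and were sequenced on a NovaSeq X Plus. No transgene is named for either group. The w1118 stock carries a mutant allele of the eye colour gene white, shared by every library used here. The series as a whole asks how RNA levels change with the activity of fat (ft), a giant cadherin of growth control and planar polarity. The contrast described here is that of normal stage and tissue among its controls. The number of animals behind a library is not given in the sources used here.

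The eye-brain complex holds the eye-antennal imaginal discs with the larval brain, and the ring gland lies on the brain. In the brain of an L3 larva, neuroblasts divide asymmetrically, each division leaving a neuroblast and a smaller daughter that gives rise to neurons or glia. A ring of neuroepithelium generates the optic lobe. In the eye disc, a furrow sweeps the epithelium and photoreceptors are recruited behind it. An embryo close to hatching has by contrast completed its body plan. Its epidermis and trachea lay down the first larval cuticle, its muscles contract, its gut is formed, and most of its cells have left the division cycle.

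The 2 groups also stand in different count tables. The embryo counts were deposited with the FtICD libraries (animals expressing the intracellular domain of Fat) and the eye-brain counts with the ft null libraries. Stage, tissue and table cannot be told apart within the 7 libraries. A pair of wild-type eye-brain libraries of the FtICD table, sequenced on a NovaSeq 6000, shares its table with the embryos. It is called the eye-brain pair of the FtICD table, and its values are given beside the main ones, with the same embryos. The comparisons therefore share the embryo libraries.

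The eye-brain libraries held 15016561 to 16266881 counts and the embryo libraries 24827492 to 30046844. Ribosomal RNA genes, set aside here, took 0.946% to 1.44% of counts in eye-brain and 4.22% to 6.02% in embryos. Mitochondrial genes took 0.0548% to 0.102% of the remaining counts in eye-brain and 0.396% to 0.569% in embryos. The numbers of genes with at least 10 counts were 9748 to 10151 in eye-brain and 11257 to 11408 in embryos. Log2 levels correlated across genes at r = 0.992 to 0.996 within eye-brain, 0.991 to 0.995 within embryos and 0.560 to 0.579 between the groups (genes are not independent replicates). By a chi-square of counts over genes, eye-brain replicate 2 differed more from its group than the others did (25.5 and 26.0 per degree of freedom, against 6.84 between replicates 1 and 3). Embryo replicate 1 likewise differed by 27.5 to 42 from the other embryos, which differed by 12.5 to 16.9 among themselves. Calls numbered 10208 without eye-brain replicate 2 and 9946 without embryo replicate 1, beside 10160 with all libraries, and genes beyond 2-fold 6678 and 6435, beside 6635. The libraries were not stranded, so reads cannot be divided between genes whose exons overlap. Among the genes named below this concerns Ddc, GluRIIA, Kr-h1, Mcm3, Ndg, br, cmet, dib, ex, gcm, repo, sad, sei and sro, each of which overlaps another protein-coding gene, and further cases with protein-coding genes are given with the gene. Overlaps with non-coding RNA genes carry the same limit, and pros, brat, hth, sev, ds, ftz-f1, srp, trh, eve, Ubx, Diap1, ETH, axo, Act87E, Hsp67Ba and Vha100-5 are among the genes that have one.

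Levels are library-scaled counts (CPM, with TMM scaling), and fold changes are log2 values of eye-brain over embryo with standard errors. Of 11679 genes tested with edgeR, 10160 (87.0%) passed an adjusted p of 0.05. They divided into 4828 higher in eye-brain (41.3%) and 5332 lower (45.7%). The groups did not overlap, with every eye-brain library above or below every embryo library, for 4816 higher genes (41.2%) and 5300 lower genes (45.4%) of those tested. With so many calls, the counts below use a stricter test of a change beyond 2-fold. It was passed by 6635 genes (56.8%), of which 2796 were higher in eye-brain (23.9%) and 3839 lower (32.9%). Counts of list members given below are to be read beside these shares of all genes tested. A gene can also pass the filter on low counts only through the group where it is high, and its direction is then no result. Through the embryos alone this holds for AkhR, Cyp18a1, Hex-C, Ilp4, ImpL1, NimC4, Rh6, Tps1, cad, w and y. Through eye-brain alone it holds for AstCC, E(spl)mdelta-HLH, Fbp1, Ilp2, Ilp3, Ilp5, Lcp1, Lcp2, Lsp1beta, Myo81F, ato, dib, lz and sim. For these genes, and others so marked below, levels are description only. For the eye-brain pair of the FtICD table over the same embryos, 6437 of 11924 genes (54%) passed beyond 2-fold, and 10101 (84.7%) passed an adjusted p of 0.05. Beyond 2-fold 2578 were higher (21.6%) and 3859 lower (32.4%). The median log2 fold change over all genes tested was -0.10, and fold changes are relative to this scaling. With library totals in place of TMM the median was 0.61, and the genes beyond 2-fold numbered 4478 higher and 3040 lower. In these bulk libraries fewer cells of a type and less RNA per cell cannot be told apart.

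Differences between the 2 wild-type eye-brain sets were measured on the same tissue. The sets differ in table and in instrument, and may differ in collection, and these cannot be told apart. Wild-type eye-brain of the ft null table over wild-type eye-brain of the FtICD table gave 5372 calls among 10146 genes tested (52.9%). Of these 10146 genes, 1093 (10.8%) were higher and 215 (2.12%) lower beyond 2-fold. The difference moved with the annotated exon length of the gene. For genes with under 600 exon bases its median log2 value was -0.42, and for genes with 4000 or more it was 0.77. Over the same length classes the median of eye-brain over embryo was 0.00 in the shortest and 0.97 in the longest. With the eye-brain pair of the FtICD table these medians were 0.68 and 0.27. Values of the eye-brain pair of the FtICD table therefore stand beside the gene groups described below.

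**Figure D1:**
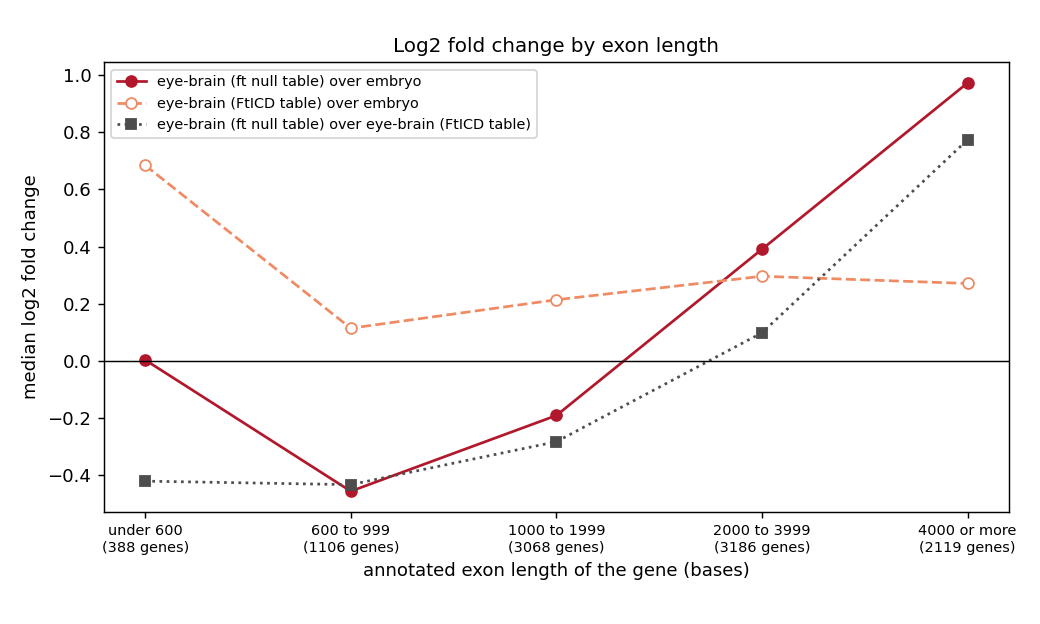
Median log2 fold change (vertical axis) of genes grouped by annotated exon length in bases (horizontal axis), for eye-brain of the ft null table over embryo, eye-brain of the FtICD table over embryo, and eye-brain of the ft null table over eye-brain of the FtICD table. The first and the last of these go from -0.46 to 0.97 and from -0.43 to 0.77 between genes of 600 to 999 bases and genes of 4000 or more, while the FtICD-table comparison goes from 0.11 to 0.27.

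Markers of the labelled tissues were present. All 6 eye disc markers were higher beyond 2-fold in eye-brain, with a summed level of 516 to 568 CPM there and 33.8 to 40.2 CPM in embryos. The FtICD-table pair had sums of 105 and 125 CPM, and there so was lower than in embryos and eya was not beyond 2-fold. Of 5 neuroblast markers, 4 were higher beyond 2-fold and 1 was lower in the plain test. Their sums were 339 to 424 CPM in eye-brain, 208 and 242 CPM in the pair, and 83.4 to 101 CPM in embryos. mira alone held 196 to 226 CPM in eye-brain, and in the pair it was lower than in embryos. Of 5 general neuron markers (elav, nSyb, Syt1, brp and fne), 4 were higher but only 1, brp, beyond 2-fold. With the pair brp was lower than in embryos (-0.44). The neuron marker sums were 1251 to 1375 CPM in eye-brain, 1063 and 1245 CPM in the pair, and 788 to 869 CPM in embryos. Of 5 glial markers 2 were higher and 2 lower, with sums of 325 to 399 CPM in eye-brain and 293 to 333 CPM in embryos. Markers of cells outside the label were seen too. The 5 prothoracic gland markers summed to 488 to 764 CPM in eye-brain and 23.5 to 29.8 CPM in embryos. The 6 muscle markers summed to 333 to 462 CPM in eye-brain, against 33040 to 37651 CPM in embryos, and the 4 midgut markers to 1.05 to 1.65 CPM against 101 to 121 CPM. The 4 fat body markers summed to 169 to 381 CPM in eye-brain and 1048 to 1642 CPM in embryos, and the 3 glue genes of the salivary gland to 11.7 to 27.8 CPM and 0.771 to 3.65 CPM. No marker of any of the 12 cell types was at 0 counts in either group.

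**Figure D2:**
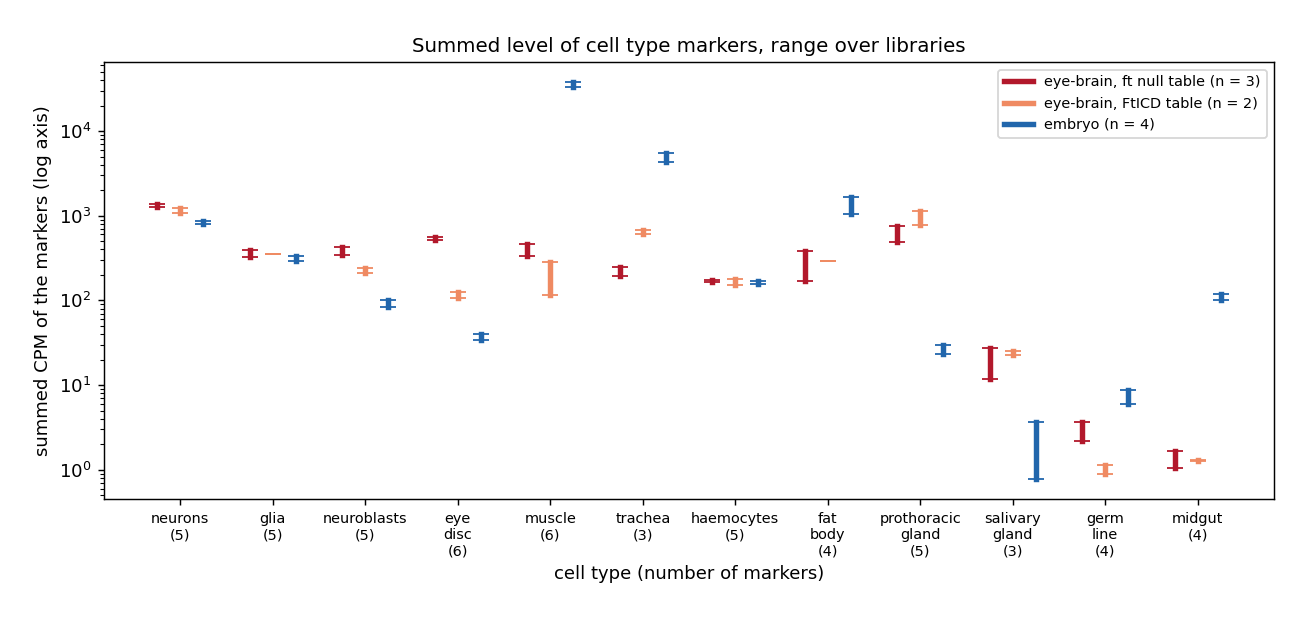
Range over libraries of the summed CPM of cell type markers (vertical log axis) in eye-brain of the ft null table (n = 3), eye-brain of the FtICD table (n = 2) and embryos (n = 4), with the number of markers under each cell type (horizontal axis). Eye disc, neuroblast and prothoracic gland sums lie above those of the embryos in both eye-brain sets, and muscle, trachea, midgut and germ line sums lie below.

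Neuroblast genes were higher in eye-brain as a group. Of 19 neuroblast and asymmetric division genes tested, 13 were higher beyond 2-fold and 2 lower, with a median log2 fold change of 2.44 beside -0.10 for all genes. With the eye-brain pair of the FtICD table, 10 were higher beyond 2-fold, 3 lower, and the median was 1.24. Syp (FBgn0038826, chromosome 3R, 20756729 to 20810726, BDGP6.54) encodes Syncrip, an RNA-binding protein of late neuroblasts and of the neurons they make. It stood at 1356, 1191 and 1506 CPM in eye-brain, 1577 and 1921 CPM in the FtICD-table pair, and 2.31, 1.65, 1.53 and 0.808 CPM in embryos. The groups were far apart. On the log2 scale the change was 9.75 ± 0.23 (SE) with an adjusted p of 3.5e-11, and 10.18 ± 0.25 for the FtICD-table pair. The neuroblast factors that Syp is known to oppose went the other way. chinmo, a zinc finger protein of early-born neurons, was at 284, 290 and 339 CPM in eye-brain and 1363 to 1575 CPM in embryos (log2 fold change -2.25 ± 0.10, adjusted p = 2.4e-09). Imp, an RNA-binding protein of early neuroblasts, was at 154, 111 and 182 CPM in eye-brain and 374 to 407 CPM in embryos (-1.40 ± 0.14, adjusted p = 3.6e-06). Both were also lower with the FtICD-table pair, by log2 fold changes of -1.25 for chinmo and -0.53 for Imp. The exons of Imp overlap those of a long non-coding RNA.

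Genes of daughter cell fate were high in eye-brain. pros, the homeodomain protein that ends division in daughter cells, was at 1815, 1996 and 1968 CPM in eye-brain, 3025 and 4512 CPM in the FtICD-table pair, and 42.8 to 45.8 CPM in embryos. The log2 fold change was 5.43 ± 0.08 (adjusted p = 5.5e-12). nerfin-1, a zinc finger protein that holds neurons in their fate, was at 451 to 521 CPM in eye-brain and 9.24 to 13 CPM in embryos (5.46 ± 0.12, adjusted p = 2.7e-11). brat, a repressor of translation inherited by the daughter cell, was higher by 2.69 ± 0.09 and ase, a proneural protein of neuroblasts, by 4.02 ± 0.19. These genes were also higher with the FtICD-table pair, by 6.45 for pros, 5.00 for nerfin-1, 2.99 for brat and 4.03 for ase. The marker mira and the list member btd did not. mira, the adaptor that carries Pros and Brat into the daughter cell, was at 223, 196 and 226 CPM in eye-brain, 1.67 and 2.35 CPM in the FtICD-table pair, and 16.5 to 23 CPM in embryos. It was thus higher by 3.46 ± 0.12 in the main comparison and lower by -3.23 ± 0.23 with the pair. btd, a zinc finger protein, was at 25.5 to 32.2 CPM in eye-brain and 0.893 to 1.51 CPM in embryos, but at 1.81 and 1.83 CPM in the pair.

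Patterning factors of the optic lobe were higher beyond 2-fold for 19 of 21 members, none was lower, and the median was 2.51. With the eye-brain pair of the FtICD table, 14 were higher and 1 lower, and the median was 1.54. Several of these factors appear in sequence as optic lobe neuroblasts age. The late factor tll, a nuclear receptor, was at 58.7, 53.0 and 59.0 CPM in eye-brain and 4.67 to 7.52 CPM in embryos (3.24 ± 0.14, adjusted p = 2.8e-09). scro, a homeobox gene, was at 125 to 158 CPM in eye-brain and 18.0 to 20.1 CPM in embryos (2.86 ± 0.09). The early factor hth was the exception among the factors named. It was at 339, 375 and 430 CPM in eye-brain and 446 to 490 CPM in embryos, a log2 fold change of -0.32 ± 0.09 (adjusted p = 0.0071) that was not beyond 2-fold. Its direction turned with library totals only (0.39) and with the FtICD-table pair (1.25). ap, a LIM-homeodomain gene of medulla neurons, was higher by 3.22 ± 0.11 and 3.18 with the pair. Vsx1, a homeobox gene of one region of the optic lobe neuroepithelium, was higher by 3.72 ± 0.15 and 0.97 with the pair. sim, a transcription factor first known from the midline, was at 16.4 to 22.1 CPM in eye-brain and 0.255 to 0.681 CPM in embryos.

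**Figure D3:**
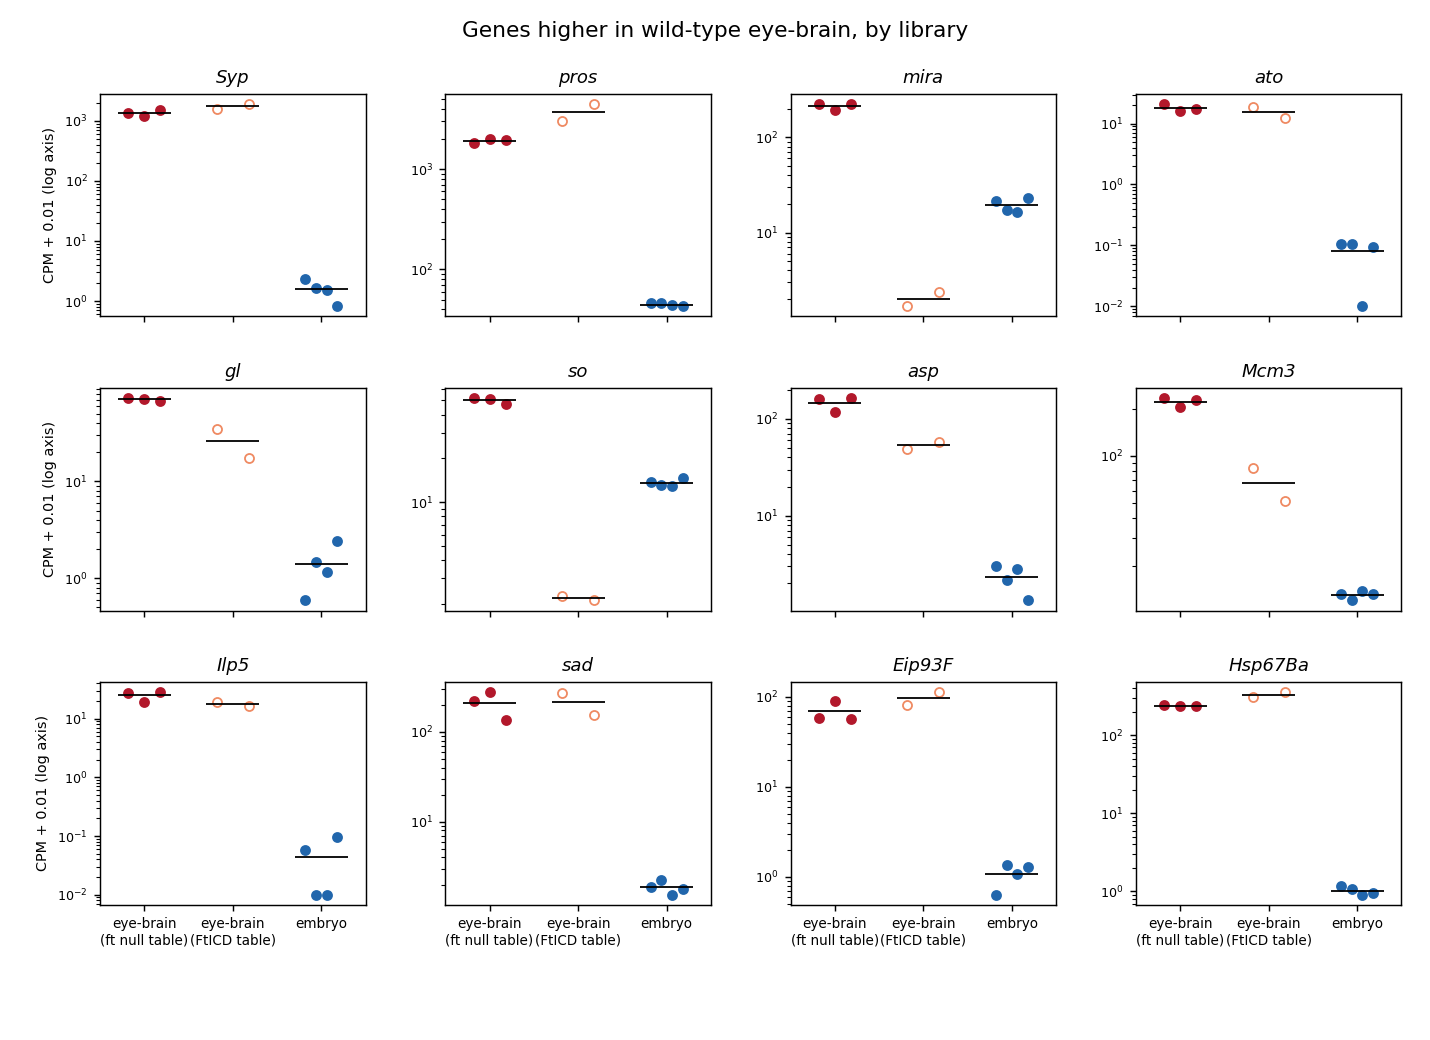
CPM of 12 genes with 0.01 added (vertical log axis) in each library of eye-brain of the ft null table, eye-brain of the FtICD table and embryos (horizontal axis); points are libraries and lines are group means. For each of these genes the 3 eye-brain libraries of the ft null table lie above the 4 embryo libraries, while mira and so lie below the embryos in the FtICD-table pair.

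The retinal determination genes specify the eye field, and 9 of 11 were higher beyond 2-fold with none lower (median 1.81). With the eye-brain pair of the FtICD table, 5 were higher and 1 lower (median 1.08). ey and toy, the Pax6 genes at the head of this group, were at 59.6 to 64.2 and 137 to 182 CPM in eye-brain against 6.65 to 10.3 and 29.0 to 31.2 CPM in embryos. Their log2 fold changes were 2.79 ± 0.13 for ey and 2.48 ± 0.10 for toy. The FtICD-table pair gave 2.47 and 3.12. eya, a phosphatase and transcriptional cofactor, was at 260, 219 and 243 CPM in eye-brain and 9.93 to 13.1 CPM in embryos, with 19.6 and 17.9 CPM in the FtICD-table pair. dac, a nuclear cofactor, was at 202 to 222 CPM in eye-brain and 8.72 to 11.4 CPM in embryos, with 27.9 and 32.9 CPM in the pair. Both were higher in each eye-brain set, but by log2 fold changes of 4.37 for eya and 4.43 for dac in one and 0.75 and 1.67 in the other. so, the homeodomain partner of Eya, was at 52.1, 51.4 and 47.4 CPM in eye-brain, 2.27 and 2.10 CPM in the FtICD-table pair, and 12.8 to 14.6 CPM in embryos. Its direction therefore differed, with 1.89 ± 0.09 in the main comparison and -2.57 ± 0.18 for the pair.

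Genes of ommatidial differentiation were higher beyond 2-fold for 17 of 24 members and lower for none, with a median of 2.44 (14, 1 and 1.42 with the FtICD-table pair). ato (FBgn0010433, chromosome 3R, 8278052 to 8279274) is the proneural gene that selects the founder photoreceptor R8. It was at 21.2, 16.3 and 17.2 CPM in eye-brain, 18.9 and 12.5 CPM in the FtICD-table pair, and 0 to 0.0973 CPM in embryos, where it held 6 counts in all. The log2 fold change was 7.88 ± 0.32, but ato passed the filter on low counts through eye-brain, so its direction is no result. gl, the zinc finger protein that photoreceptors need, was at 73.1, 71.0 and 68.5 CPM in eye-brain and 0.578 to 2.42 CPM in embryos (5.62 ± 0.26, adjusted p = 3.8e-09). chp, a surface glycoprotein of photoreceptors, was at 30.9 to 43.1 CPM in eye-brain and 0.723 to 1.32 CPM in embryos (5.22 ± 0.19). These 3 were also higher with the pair, by 7.74 for ato, 4.25 for gl and 5.00 for chp. lz, a Runx protein of later photoreceptor and cone cell fates, was at 25.9 to 30.5 CPM in eye-brain, 2.02 and 1.74 CPM in the FtICD-table pair, and 0.0973 to 0.241 CPM in embryos. The marker sev, the receptor tyrosine kinase of R7, was at 116 to 126 CPM in eye-brain and 8.56 to 9.31 CPM in embryos (3.79 ± 0.08), with 1.42 for the pair.

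Genes of the light response of photoreceptors went both ways. Of 17 phototransduction genes tested among 22, 2 were higher beyond 2-fold and 7 lower (4 and 8 of 20 with the FtICD-table pair, and 7 higher with library totals). The 2 that were higher were norpA, the phospholipase C of the pathway, at 83.0 to 110 CPM in eye-brain and 21.0 to 23.7 CPM in embryos, and inaC, a protein kinase C, at 8.07 to 8.40 and 0.723 to 1.07 CPM. The opsin Rh6 was at 0.0492, 0.776 and 1.34 CPM in eye-brain and 5.30 to 7.71 CPM in embryos (-3.18 ± 0.54). Arr1, an arrestin, was at 0 to 0.516 CPM in eye-brain and 4.04 to 4.93 CPM in embryos, and trpl, a light-gated channel, at 0.137 to 0.155 and 1.16 to 1.95 CPM. Gbeta76C, the G protein subunit of the pathway, had 5 counts over the 3 eye-brain libraries and 249 over the 4 embryo libraries. Rh6, Arr1, trpl and Gbeta76C passed the filter on low counts through the embryos, so their direction is no result. The count of lower phototransduction genes includes such members.

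Signals that act between cells of these tissues were higher in eye-brain in part. Notch pathway genes, which restrict neural fate, were higher beyond 2-fold for 18 of 24 members and lower for 1 (median 1.84; 19, 0 and 2.09 with the FtICD-table pair). The lower call was lost under DESeq2, library totals, the replicate block and without embryo replicate 1, 3 or 4. The receptor gene N was at 488 to 521 CPM in eye-brain and 56.6 to 68.1 CPM in embryos (3.01 ± 0.08, adjusted p = 9.1e-11). Its targets of the E(spl) complex were higher too, E(spl)mdelta-HLH by 5.19 ± 0.31 and E(spl)malpha-BFM by 4.69 ± 0.24. Brd, which encodes an inhibitor of Neuralized, was higher by 4.38 ± 0.26. Of 19 genes of EGF receptor signalling, 10 were higher beyond 2-fold and 1 lower (median 1.13; 10, 2 and 1.24 with the pair). Of 28 secreted patterning signals 8 were higher and 3 lower (7 and 7 with the pair), and with library totals 15 were higher. The higher count of the patterning signals lies near the 23.9% of all genes tested that were higher beyond 2-fold.

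Genes of DNA replication and mitosis were higher in eye-brain almost throughout. Of 44 replication genes 37 were higher beyond 2-fold and none lower, with a median of 2.34. Of 51 mitosis and cell cycle genes 45 were higher and none lower, with a median of 2.73. With the FtICD-table pair the counts were 42 and 42 higher, none lower, with medians of 2.55 and 2.77. asp, a protein of spindle poles, was at 159, 119 and 165 CPM in eye-brain and 1.32 to 3.04 CPM in embryos (6.01 ± 0.21, adjusted p = 4.8e-10). pav, a kinesin of cytokinesis, was at 142 to 183 CPM in eye-brain and 2.96 to 5.15 CPM in embryos (5.31 ± 0.16), and Top2, the DNA topoisomerase, at 589 to 795 and 19.6 to 25.5 CPM (5.01 ± 0.14). Cenp-C, of the kinetochore, was higher by 4.43 ± 0.18. The kinetochore genes rod and cmet, named for their fold change among all genes, were higher by 6.76 ± 0.12 and 6.57 ± 0.20, and the microtubule-binding Map205 by 6.26 ± 0.15. Among replication genes the helicase subunits Mcm3 and Mcm5 were at 205 to 234 and 87.6 to 109 CPM in eye-brain, against 12.0 to 13.7 and 6.91 to 8.33 CPM in embryos. PCNA, the sliding clamp, was at 164 to 179 CPM in eye-brain and 60.3 to 70.1 CPM in embryos, a smaller log2 fold change of 1.37 ± 0.08 (adjusted p = 1.9e-08). CycB, a mitotic cyclin, was not beyond 2-fold (1.28 ± 0.25) and was among the genes most spread within embryos, at 69.2, 43.9, 82.6 and 35.6 CPM.

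General neuronal genes were higher beyond 2-fold for 13 of 25 members and lower for 2 (median 1.77), and with the FtICD-table pair for 7 and 2 (median 0.49). robo1, a receptor of axon guidance, was at 116 to 120 CPM in eye-brain and 4.33 to 7.13 CPM in embryos (4.45 ± 0.15), with 11.6 and 12.9 CPM in the FtICD-table pair. onecut, a homeobox gene of neurons, was at 306 to 456 CPM in eye-brain and 16.6 to 20.4 CPM in embryos (4.24 ± 0.15; 2.44 with the pair). The 2 lower members were Rbp9, an RNA-binding protein of the ELAV family, and NetA, an axon guidance ligand. Rbp9 was at 8.71 to 9.90 CPM in eye-brain and 65.3 to 78.3 CPM in embryos (-2.95 ± 0.10; -2.58 with the pair), and its exons overlap those of Ts. NetA was at 30.2 to 30.9 CPM in eye-brain and 127 to 136 CPM in embryos (-2.09 ± 0.07; -1.73 with the pair).

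Genes of synaptic vesicle release passed the plain test in the higher direction for 19 of 21 members, and 7 did so beyond 2-fold with none lower beyond it (median 0.87; 3, 1 and 0.14 with the FtICD-table pair). With library totals 18 were higher beyond 2-fold. Snap25, a SNARE protein, was at 79.1, 62.0 and 102 CPM in eye-brain, 94.0 and 113 CPM in the FtICD-table pair, and 13.4 to 17.5 CPM in embryos. brp, of the presynaptic active zone, was at 216, 319 and 222 CPM in eye-brain, 40.7 and 46.9 CPM in the pair, and 56.4 to 66.6 CPM in embryos. It was thus higher by 2.04 ± 0.13 in one comparison and lower by -0.44 ± 0.11 in the other. Syngr, a synaptic vesicle protein, was at 59.4 to 81.1 CPM in eye-brain, 4.40 and 4.63 CPM in the pair, and 3.99 to 5.71 CPM in embryos. Of 18 transmitter genes 3 were higher and 4 lower beyond 2-fold, against 0 and 7 with the pair and 5 and 2 with library totals. Of 37 channel genes 5 were higher and 6 lower, against 4 and 11 with the pair, and 10 were higher with library totals. VGlut, the glutamate transporter of synaptic vesicles, was higher by 1.60 ± 0.08 and Ace, the acetylcholinesterase, by 1.76 ± 0.07 (0.52 and 0.34 with the pair). sei, a potassium channel, was higher by 2.33 ± 0.15 (2.07 with the pair).

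The lower channel genes included the 5 subunits of the glutamate receptor that muscles use at the neuromuscular junction. GluRIIC was at 0.689, 0.730 and 0.723 CPM in eye-brain, 0.576 and 0.541 CPM in the FtICD-table pair, and 44.6 to 48.9 CPM in embryos (-6.04 ± 0.13, adjusted p = 1.9e-11). GluRIIA, GluRIIB, GluRIID and GluRIIE had log2 fold changes of -5.15, -4.98, -3.39 and -4.77. The exons of GluRIID and GluRIIE overlap, so their counts cannot be fully told apart. Muscle markers moved with these genes, as given above, and their part in the result was not tested. The enzymes ple and Ddc, which make dopamine in neurons and the precursors of cuticle tanning in epidermis, were lower too. ple was at 6.60 to 9.19 CPM in eye-brain and 72.8 to 98.2 CPM in embryos (-3.52 ± 0.15). Ddc was at 44.5 to 71.8 CPM in eye-brain and 286 to 418 CPM in embryos (-2.67 ± 0.19).

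Neuropeptide and peptide hormone genes were higher beyond 2-fold for 20 of 38 members tested and lower for 7 (median 1.37; 24, 5 and 1.83 with the FtICD-table pair). The insulin-like peptides of the brain's neurosecretory cells were among the higher ones. Ilp5 was at 27.3, 19.1 and 28.5 CPM in eye-brain and had 3 counts over the 4 embryo libraries, 692 times the embryo level (95% interval 236 to 3360, counting error only). Ilp3 was at 33.5 to 41.1 CPM in eye-brain and 0.438 to 0.553 CPM in embryos (6.19 ± 0.15). Ilp2 was at 3.51 to 6.10 CPM in eye-brain and 0.213 to 0.674 CPM in embryos (3.43 ± 0.38). AstCC, an allatostatin, was higher by 7.32 ± 0.28, and Dh44, a diuretic hormone, by 3.73 ± 0.17. Ilp2, Ilp3, Ilp5 and AstCC passed the filter on low counts through eye-brain, so their direction is no result. Another insulin-like gene was restricted to the other side. Ilp4 had 0 counts in the 3 eye-brain libraries and in the FtICD-table pair, and 18.1 to 20.1 CPM in embryos, at least 395-fold lower in eye-brain taking 3 counts in the group as the floor. Nplp2, listed as a neuropeptide-like precursor, was at 1.14 to 5.37 CPM in eye-brain and 2733 to 3052 CPM in embryos (-9.74 ± 0.38). ETH, the trigger of the moulting behaviour, and Burs, a subunit of the tanning hormone bursicon, were lower by -2.93 ± 0.17 and -2.29 ± 0.22. With the pair the values were -2.93 for ETH and -0.68 for Burs, and Burs was not beyond 2-fold there.

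Glial genes did not move one way. Of 20 tested, 6 were higher beyond 2-fold and 1 lower (4 and 0 with the FtICD-table pair), and the median was -0.01 (0.12 with the pair). repo, the homeodomain protein of glia, was at 68.9, 73.4 and 73.0 CPM in eye-brain, 30.0 and 17.6 CPM in the pair, and 12.7 to 20.0 CPM in embryos (2.12 ± 0.13; 0.59 with the pair). Mdr65, a transporter of the blood-brain barrier, was at 197 to 315 CPM in eye-brain and 41.8 to 57.2 CPM in embryos (2.42 ± 0.16). gcm, the factor that starts glial fate, was higher by 2.82 ± 0.19 and axo by 2.60 ± 0.09. With the pair gcm was higher by 2.70 and axo by 0.96, and axo was not beyond 2-fold there. The lower gene was Tret1-1, a trehalose transporter, at 31.6 to 52.1 CPM in eye-brain and 96.8 to 122 CPM in embryos (-1.24 ± 0.16). Its call beyond 2-fold was lost under DESeq2, with library totals, and without eye-brain replicate 2, embryo replicate 1 or embryo replicate 3. nrv2, a sodium pump subunit, was at 338 to 543 CPM in eye-brain and 461 to 594 CPM in embryos, and the groups overlapped (-0.26 ± 0.16, adjusted p = 0.13).

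Hormone synthesis genes of the ring gland, whose prothoracic part makes ecdysone, were high in the eye-brain libraries. Of 14 hormone synthesis genes tested among 15, 11 were higher beyond 2-fold and none lower (median 3.18; 12, 0 and 2.98 with the FtICD-table pair). sad, a late hydroxylase of ecdysone synthesis, was at 218, 277 and 134 CPM in eye-brain, 270 and 154 CPM in the pair, and 1.53 to 2.24 CPM in embryos (6.81 ± 0.26, adjusted p = 9.1e-10). spok, of an early step, was at 258, 173 and 193 CPM in eye-brain, 669 and 499 CPM in the pair, and 4.04 to 5.55 CPM in embryos (5.42 ± 0.16). dib, another hydroxylase, was at 23.5, 33.8 and 11.5 CPM in eye-brain and 0.195 to 0.893 CPM in embryos (5.51 ± 0.45). nvd and sro, of the first steps, were higher by 3.61 ± 0.19 and 3.52 ± 0.38. sad and dib varied about 2-fold or more among the eye-brain libraries, with replicate 3 at the low end, yet all 3 lay far above the embryos.

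Genes of the ecdysone response went both ways, 7 of 29 higher beyond 2-fold and 7 lower, with a median of 0.00 (8, 9 and 0.16 with the FtICD-table pair). With library totals 14 were higher and 4 lower. Of all genes tested, 23.9% were higher and 32.9% lower beyond 2-fold. Eip93F, a transcription factor of the larva-to-pupa transition, was at 58.7, 90.8 and 57.3 CPM in eye-brain and 0.626 to 1.36 CPM in embryos (5.98 ± 0.24, adjusted p = 1.3e-09). br, the Broad factor that marks the entry into metamorphosis, was at 1759, 2387 and 1679 CPM in eye-brain and 102 to 113 CPM in embryos (4.17 ± 0.13, adjusted p = 2.0e-10). Blimp-1 was at 6.25, 34.3 and 5.78 CPM in eye-brain and 0.510 to 0.973 CPM in embryos (4.42 ± 0.66), with 3.05 and 19.5 CPM in the FtICD-table pair. Eip93F, br and Blimp-1 were each highest in eye-brain replicate 2. The juvenile hormone response gene Kr-h1 was higher by 3.06 ± 0.14 and ImpE3 by 3.96 ± 0.30. On the lower side, Cyp18a1 (FBgn0010383, X, 18688538 to 18693042), which inactivates ecdysone, was at 0.541, 0.319 and 0.310 CPM in eye-brain and 289 to 316 CPM in embryos (-9.59 ± 0.15). ftz-f1, a nuclear receptor expressed as ecdysone falls, was at 18.8 to 33.0 CPM in eye-brain and 420 to 553 CPM in embryos (-4.10 ± 0.20). ImpL1 was lower by -6.86 ± 0.49. Cyp18a1 and ImpL1 passed the filter on low counts through the embryos, so their direction is no result.

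Small heat shock genes, which ecdysone is known to induce in late larvae, were among the higher of 21 heat shock and chaperone genes tested. Log2 fold changes of the list ran from -11.23 to 7.87, and the members lower beyond 2-fold are not named here. Of the 21, 6 were higher beyond 2-fold and 4 lower (8 and 4 with the FtICD-table pair, and 11 higher with library totals). Over all genes tested the shares were 23.9% higher and 32.9% lower. Hsp67Ba was at 243, 237 and 238 CPM in eye-brain and 0.898 to 1.16 CPM in embryos (7.87 ± 0.10, adjusted p = 5.2e-12). Hsp23 was at 1231 to 1590 CPM in eye-brain and 5.55 to 11.4 CPM in embryos (7.45 ± 0.24). Hsp27 was at 1401 to 1694 CPM in eye-brain and 17.5 to 28.1 CPM in embryos (6.18 ± 0.17), and Hsp26 at 121 to 234 and 10.1 to 25.9 CPM (3.55 ± 0.31). The FtICD-table pair gave 8.40 for Hsp67Ba, 5.76 for Hsp23, 7.02 for Hsp27 and 3.95 for Hsp26. Hsp83, the HSP90 chaperone, was higher by 2.44 ± 0.19. The stress-induced Hsp70Ab did not pass (1.04 ± 0.91, adjusted p = 0.30) and varied within both groups, at 425, 67.3 and 61.0 CPM in eye-brain and 45.2, 9.14, 244 and 60.5 CPM in embryos. Without embryo replicate 3 Hsp70Ab did pass (2.25, adjusted p = 0.032). Hsp70Bb was at 143, 14.0 and 15.2 CPM in eye-brain and 8.51 to 32.1 CPM in embryos (1.83 ± 0.76, adjusted p = 0.041). Without eye-brain replicate 1 its log2 fold change was -0.15 (adjusted p = 0.75). The call was also lost with the replicate block (1.09, adjusted p = 0.26) and without embryo replicate 1, 2 or 4 (adjusted p = 0.096 to 0.10). The Hsp70 genes are near-identical copies, so how reads were divided among them is uncertain. Hsc70-4, the constitutive family member, was at 5742 to 6163 CPM in eye-brain, 79.9 and 42.3 CPM in the FtICD-table pair, and 3245 to 3726 CPM in embryos. Its direction thus differed between the eye-brain sets (0.74 ± 0.08 and -5.79 ± 0.30).

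Genes of salivary gland and fat body were detected in eye-brain as well. Salivary glue genes were tested for 7 of 17 members, of which 6 were higher beyond 2-fold and none lower (7 and 0 with the FtICD-table pair). Those tested passed the filter on low counts through eye-brain, where they are high, so their direction is no result. Sgs3 was at 13.6, 5.98 and 14.0 CPM in eye-brain and 0.0482 to 0.438 CPM in embryos (5.58 ± 0.51), and Sgs4 at 3.38 to 6.69 and 0.0482 to 0.195 CPM. Of 20 fat body genes 8 were higher and 5 lower (5 and 5 with the pair), with a median of -0.35 that was 0.06 with the pair. Larval serum genes of the last larval stage were higher, with Lsp1beta at 40.8, 5.61 and 11.5 CPM in eye-brain and 0 to 1.06 CPM in embryos (5.49 ± 0.85). Fbp1, the receptor that takes serum protein back up, was at 65.1, 15.8 and 13 CPM in eye-brain and 0.255 to 1.27 CPM in embryos (5.35 ± 0.68). Lsp1beta and Fbp1 were both highest in eye-brain replicate 1. Tsf1, a transferrin, was at 112 to 131 CPM in eye-brain and 0.193 to 1.16 CPM in embryos (7.36 ± 0.23). apolpp, the lipophorin precursor, was lower, at 141 to 268 CPM in eye-brain and 1044 to 1640 CPM in embryos (-2.52 ± 0.23), and its exons overlap those of Zyx. AkhR, the adipokinetic hormone receptor, was lower by -6.90 ± 0.29.

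**Figure D4:**
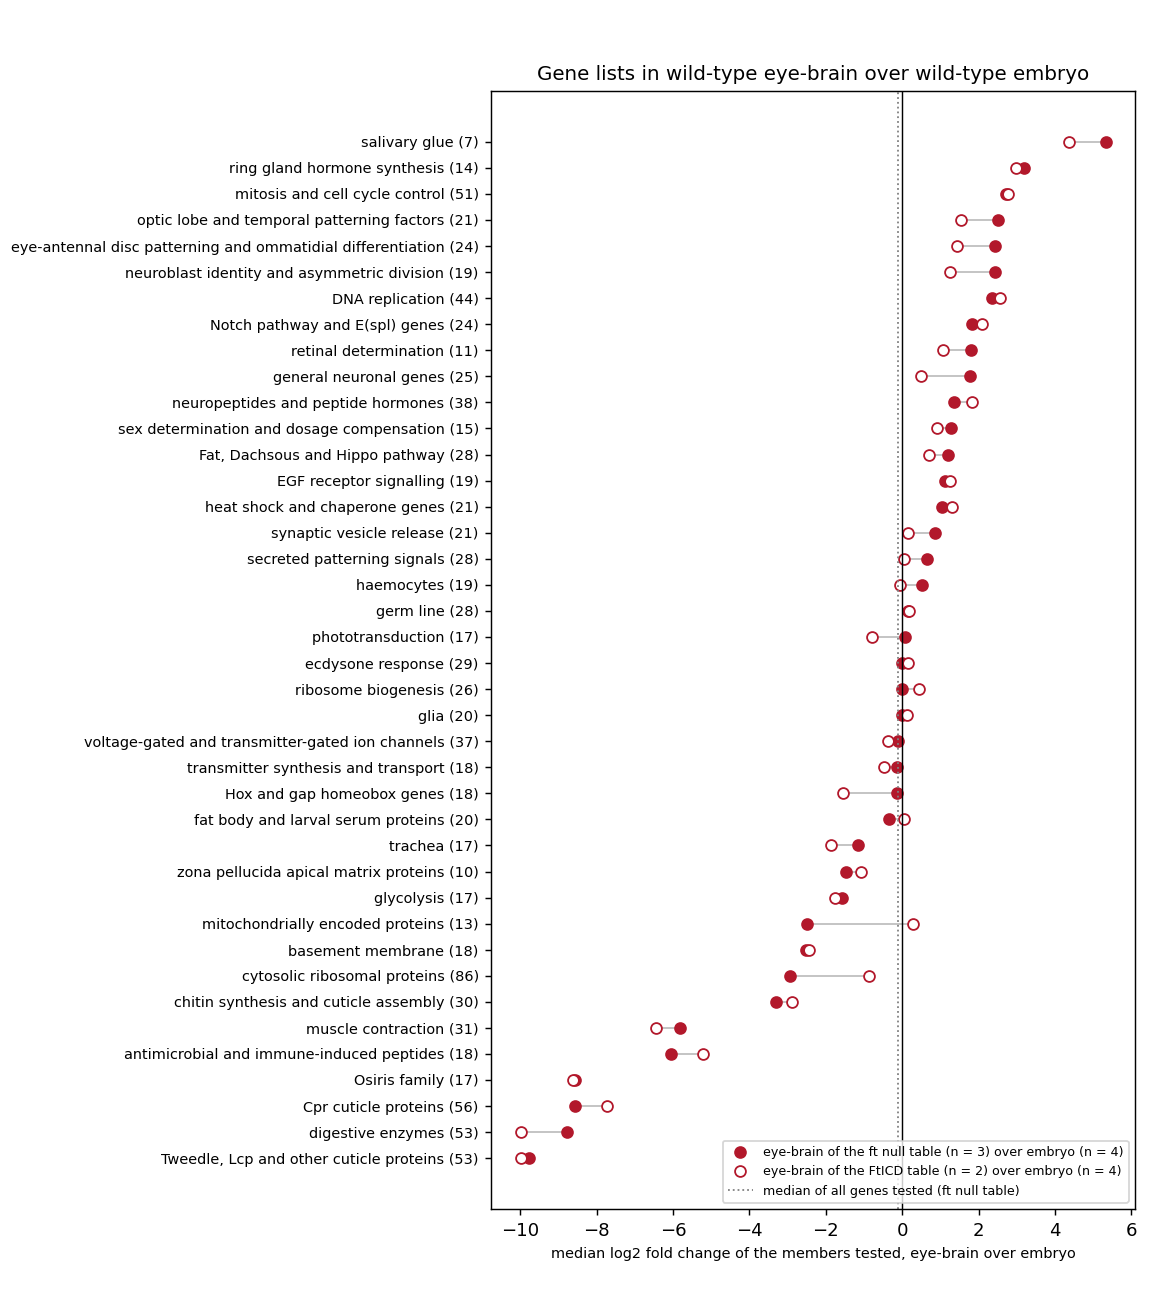
Median log2 fold change of eye-brain over embryo (horizontal axis) for 40 gene lists (vertical axis, with the number of members tested in the main comparison), filled for eye-brain of the ft null table and open for eye-brain of the FtICD table; the dotted line is the median of all genes tested, -0.10. Cell division, neuroblast, optic lobe and eye lists lie on the right in both sets, cuticle, digestive, Osiris and muscle lists on the left, and the ribosomal protein and mitochondrial lists differ between the sets.

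Cuticle genes were far lower in eye-brain. Of 70 Cpr cuticle genes 56 were tested, and 49 of these were lower beyond 2-fold and 2 higher. Their median was -8.56, or -8.37 with genes at 0 counts set to their bound. Of 57 Tweedle, Lcp and other cuticle genes 53 were tested, with 47 lower and 4 higher, and a median of -9.76, or -8.62 with the bounds. With the FtICD-table pair 51 and 46 were lower. A member that passed the filter on low counts through the embryos alone had to differ, so these counts describe the genes that passed. Summed over each list, Cpr genes stood at 76.4 to 118 CPM in eye-brain and 18291 to 22245 CPM in embryos, and the other cuticle genes at 98.9 to 155 and 38281 to 53534 CPM. TwdlM (FBgn0039434, chromosome 3R, 26619118 to 26620224) had 1 count over the 3 eye-brain libraries and 13872 to 19689 CPM in embryos, so that embryos held 997000 times the eye-brain level (95% interval 179000 to 39400000, counting error only). TwdlB and Cpr65Ax1 had 0 counts in eye-brain and means of 6120 ± 1332 and 1994 ± 427 CPM in embryos (SD, n = 4), at least 125000-fold and at least 40900-fold lower against the floor of 3 counts. Cpr51A was at 13.8 to 16.5 CPM in eye-brain and 4631 to 5250 CPM in embryos (-8.36 ± 0.13). Lcp1 and Lcp2, cuticle genes of the L3 epidermis, went the other way. Lcp1 was at 33.2, 32.6 and 20.1 CPM in eye-brain and 0.0851 to 0.876 CPM in embryos (6.34 ± 0.42), and Lcp2 at 10.2 to 15.9 and 0 to 0.341 CPM (6.49 ± 0.46). They are close paralogs, and how reads were divided between them is uncertain.

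Genes that build the cuticle followed the same direction. Of 30 chitin and cuticle assembly genes 22 were lower beyond 2-fold and 1 higher (median -3.31; 24, 1 and -2.88 with the FtICD-table pair). obst-E, a chitin-binding protein, was at 1.14 to 1.82 CPM in eye-brain and 623 to 758 CPM in embryos (-8.95 ± 0.17), and y, the pigment gene yellow, with means of 0.166 ± 0.173 and 79.8 ± 10.7 CPM (SD; -8.89 ± 0.32). The chitin deacetylases verm and serp, which also shape tracheal tubes, were at 325 to 362 and 210 to 246 CPM in eye-brain and 3555 to 4893 and 2436 to 3062 CPM in embryos. Gasp, a chitin-binding protein of the trachea, was at 184 to 237 CPM in eye-brain, 601 and 681 CPM in the pair, and 4224 to 5446 CPM in embryos (-4.42 ± 0.14). The single higher member was Cht10, a chitinase, at 270 to 280 CPM in eye-brain and 14.3 to 18.3 CPM in embryos (4.03 ± 0.10). Of 17 Osiris genes tested among 24, 16 were lower beyond 2-fold and none higher, also with the pair. Their median was -8.56, or -6.99 with genes at 0 counts set to their bound, and as for the cuticle genes the counts describe members that passed the filter largely through the embryos. This family of membrane proteins is expressed in cuticle-secreting epithelia. Osi19 had 0 counts in eye-brain and 240 to 346 CPM in embryos (at least 6010-fold lower). Osi6 and Osi7 were among the genes most spread within embryos, at 551, 173, 200 and 535 CPM for Osi6 and 512, 159, 163 and 441 CPM for Osi7, so that embryo replicates 1 and 4 were high for both. Of 10 zona pellucida proteins of the apical matrix 6 were lower beyond 2-fold and 1, neo, was higher (5 and 2 with the FtICD-table pair). dyl, of this family, showed the same split among embryos, at 0.671 to 1.53 CPM in eye-brain and 253, 159, 162 and 279 CPM in embryos.

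Of 17 tracheal genes 8 were lower beyond 2-fold and 1 higher (11 and 2 with the FtICD-table pair, and 5 and 4 with library totals). trh, the master factor of tracheal fate, was at 6.45 to 7.71 CPM in eye-brain and 24.2 to 27.6 CPM in embryos (-1.91 ± 0.11). bnl, the FGF that guides tracheal branches, was at 3.99 to 5.39 CPM in eye-brain and 20.1 to 24.7 CPM in embryos (-2.32 ± 0.14).

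Muscle genes were lower for all 31 members tested among 33, 30 of them beyond 2-fold, with a median of -5.81 (-6.44 with the FtICD-table pair). Act87E, a muscle actin, was at 15.6, 19.1 and 16.9 CPM in eye-brain, 39.4 and 26.9 CPM in the pair, and 10207 to 12438 CPM in embryos (-9.40 ± 0.15, adjusted p = 6.6e-12). The marker Mhc (FBgn0264695, chromosome 2L, 16766566 to 16788766), the muscle myosin heavy chain, was at 33.5, 31.6 and 51.5 CPM in eye-brain, 7.63 and 2.10 CPM in the pair, and 4599 to 5056 CPM in embryos (-6.95 ± 0.20). Mlc2, a myosin light chain, was at 131 to 211 CPM in eye-brain and 9245 to 10505 CPM in embryos, and Act57B at 92.1 to 126 and 14092 to 14772 CPM. TpnC47D, a troponin C, was lower by -8.79 ± 0.18. The actin genes are similar in sequence, which leaves the split of their reads uncertain. Summed, muscle genes stood at 1611 to 1894 CPM in eye-brain and 71393 to 82236 CPM in embryos.

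Basement membrane genes, made by muscle, fat body and haemocytes, were lower beyond 2-fold for 11 of 18 members and higher for none (median -2.52; 14, 0 and -2.44 with the FtICD-table pair). Ndg, the nidogen gene, was at 1.73 to 2.22 CPM in eye-brain and 919 to 1077 CPM in embryos (-8.97 ± 0.14, adjusted p = 5.2e-12). The type IV collagen genes Col4a1 and vkg were at 89.2 to 136 and 50.3 to 77.1 CPM in eye-brain, against 2929 to 3079 and 1168 to 1497 CPM in embryos. Haemocyte genes went both ways, 8 of 19 higher beyond 2-fold and 6 lower (6 and 7 of 18 with the pair), with a median of 0.53 that was -0.05 with the pair. The lower count lies near the 32.9% of all genes tested that were lower beyond 2-fold, and 23.9% were higher. eater, a phagocytic receptor of larval blood cells, was at 14.2 to 21.1 CPM in eye-brain and 1.12 to 1.70 CPM in embryos (3.63 ± 0.21). NimC4, a receptor for dying cells in the embryo, had 2 counts over the eye-brain libraries and 11.5 to 17.3 CPM in embryos, 446 times the eye-brain level (95% interval 123 to 3680). srp, the GATA factor of blood and fat body, was at 7.95 to 17.1 CPM in eye-brain and 63.5 to 70.1 CPM in embryos (-2.57 ± 0.22). PPO2, a phenoloxidase of crystal cells, was lower by -2.57 ± 0.19 and atilla by -6.54 ± 0.12.

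Digestive enzyme genes were tested for 53 of 58 members, of which 49 were lower beyond 2-fold and 1 higher (50 and 1 of 54 with the FtICD-table pair). Of those tested, 15 had 0 counts in a group, and members that passed the filter through the embryos alone had to be lower. Their median was -8.78, or -7.60 with genes at 0 counts set to their bound. Mal-A3, a maltase, had 2 counts over the eye-brain libraries and 898 to 1182 CPM in embryos, a ratio of 32800 in favour of embryos (95% interval 9070 to 270000). lambdaTry, a trypsin, had 0 counts in eye-brain and 75.7 to 78.9 CPM in embryos (at least 1590-fold lower). The protease Jon99Fi was spread within embryos, at 136, 10.2, 86.8 and 32.9 CPM, with 1 count over the eye-brain libraries. It belongs to a family of similar proteases, among which the division of reads is uncertain. cad, which patterns the hindgut and posterior midgut, was at 0.0913 to 0.206 CPM in eye-brain and 86.5 to 99.3 CPM in embryos (-9.40 ± 0.18). In both libraries of the FtICD-table pair it was at 0. It passed the filter on low counts through the embryos, so its direction is no result. Further genes named for their fold change belonged to no list. EAChm, Muc26B (a mucin) and Vha100-5 (a proton pump subunit) had 0 counts in eye-brain, with means of 1147 ± 164, 491 ± 44.3 and 306 ± 15.3 CPM in embryos (SD, n = 4). They were at least 23600-fold, 10100-fold and 6270-fold lower. Over all genes, 363 had 0 counts in each eye-brain library and at least 10 in each embryo library, and 235 of these were also at 0 in both libraries of the FtICD-table pair. The reverse, at least 10 counts in each eye-brain library and 0 in each embryo library, held for 12 genes. Of these, 10 also had at least 10 counts in both libraries of the pair. Both numbers are out of 17162 genes and use counts before scaling. The embryo libraries held more counts, so the 363 and the 12 genes are not directly comparable.

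**Figure D5:**
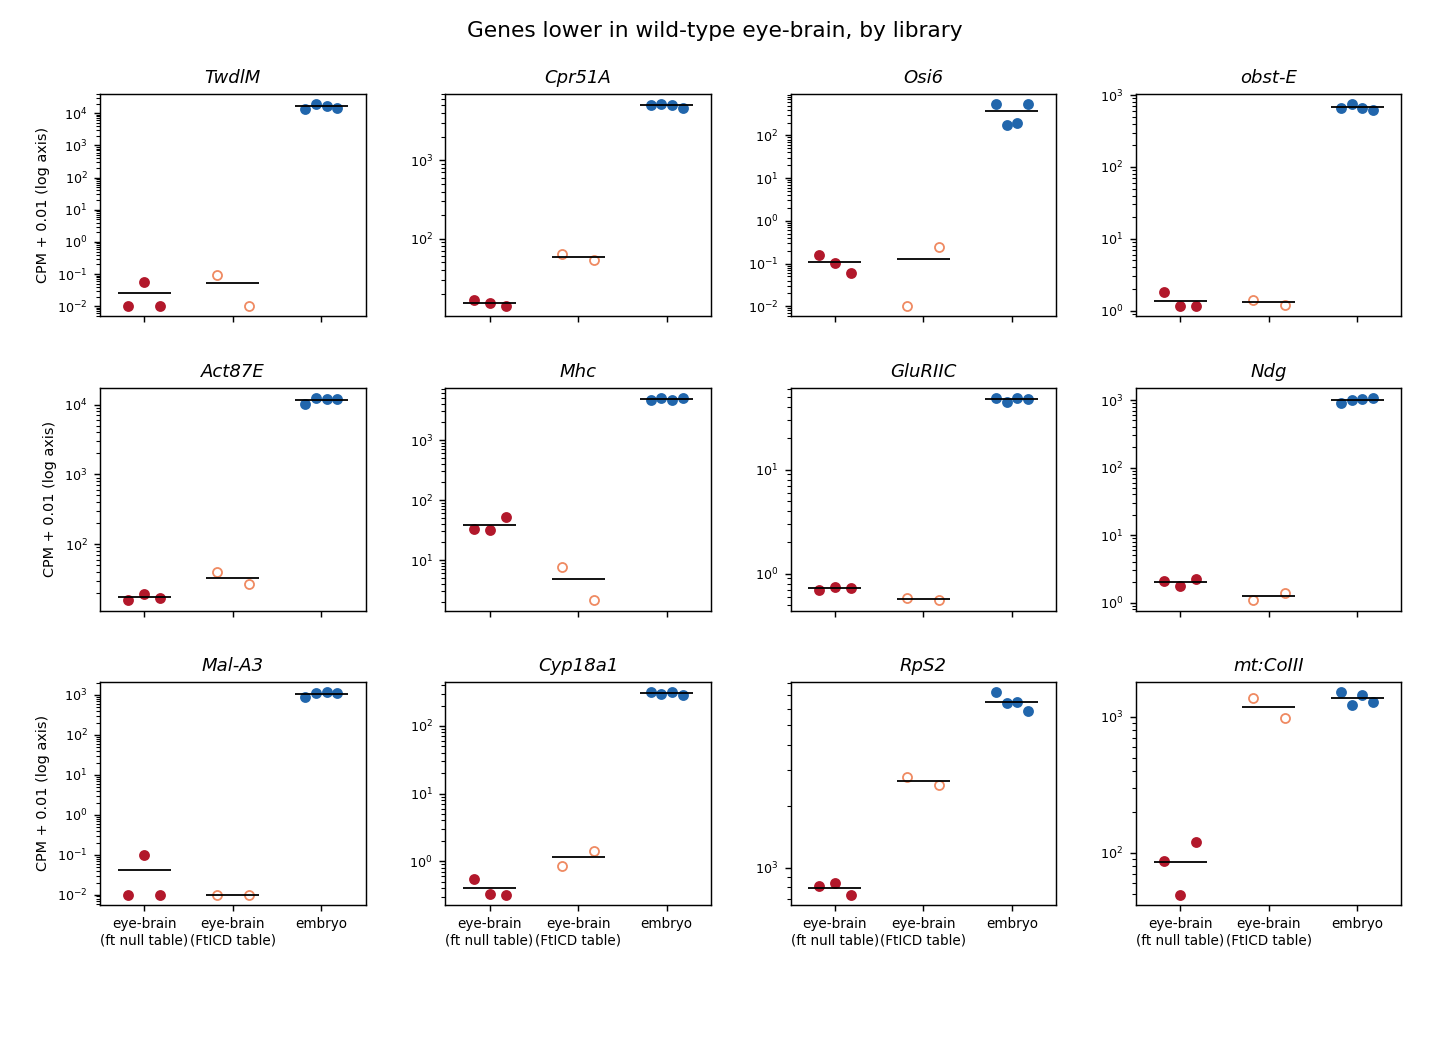
CPM of 12 genes with 0.01 added (vertical log axis) in each library of eye-brain of the ft null table, eye-brain of the FtICD table and embryos (horizontal axis); points are libraries and lines are group means. Every gene is lower in the 3 eye-brain libraries of the ft null table than in the 4 embryo libraries, and mt:CoIII in the FtICD-table pair, at 1376 and 978 CPM, lies at or near the embryo level.

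Glycolysis genes were lower beyond 2-fold for 10 of 17 members and higher for none (median -1.57; 10, 0 and -1.75 with the FtICD-table pair). Ldh, the lactate dehydrogenase, was at 82.0, 37.0 and 66.5 CPM in eye-brain and 491 to 540 CPM in embryos (-3.05 ± 0.23). Hex-C, a hexokinase, was at 0.206 to 0.394 CPM in eye-brain and 44.6 to 57.7 CPM in embryos (-7.31 ± 0.20). Tps1, which makes trehalose, was lower by -9.94 ± 0.29. Antimicrobial and immune-induced peptide genes were tested for 18 of 36 members, of which 14 were lower and 1 higher beyond 2-fold (14 and 2 of 19 with the pair). The higher count was 0 under DESeq2 and 2 with library totals. Their median was -6.04, or -4.58 with genes at 0 counts set to their bound, and 12 members had 0 counts in eye-brain, so the members tested passed the filter largely through the embryos. Of 28 germ line genes tested 9 were higher and 8 lower beyond 2-fold (6 and 7 with the FtICD-table pair). Over all genes tested the shares were 23.9% higher and 32.9% lower.

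Ribosomal protein and mitochondrial genes were lower in eye-brain, but by amounts that differed between the 2 eye-brain sets. Of 86 cytosolic ribosomal protein genes tested among 88, 82 were lower beyond 2-fold and none higher, with a median of -2.94. With the eye-brain pair of the FtICD table, 21 were lower, none higher, and the median was -0.87. Their summed level was 21721 to 22917 CPM in eye-brain, 68081 and 84026 CPM in the pair, and 151797 to 169233 CPM in embryos. RpS2 was at 737 to 842 CPM in eye-brain, 2777 and 2542 CPM in the pair, and 5832 to 7247 CPM in embryos (-3.03 ± 0.11; -1.23 with the pair). Genes for ribosome biogenesis, by contrast, were higher for 3 and lower for 4 of 26 (1 and 0 with the pair, and 9 and 0 with library totals). Of 13 proteins encoded in mitochondrial DNA, 8 were lower beyond 2-fold and 2 higher (median -2.48), against 0 lower and 5 higher with the pair (median 0.28). The 2 higher calls became 1 without embryo replicate 1 or 3 and 0 without embryo replicate 2 or 4. mt:CoIII was at 86.8, 49.2 and 120 CPM in eye-brain, 1376 and 978 CPM in the pair, and 1223 to 1513 CPM in embryos. mt:ND1 was at 2.97 to 4.13 CPM in eye-brain, 55.7 and 44.1 CPM in the pair, and 41.3 to 62.0 CPM in embryos. The lower level of these mitochondrial genes was thus seen in one eye-brain set and not in the other.

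Hox and gap genes, which give body regions their identity, went both ways. Of 18 members 5 were lower beyond 2-fold and 4 higher, against 10 lower and 1 higher with the FtICD-table pair. With library totals 3 members were lower. Over all genes tested the main shares were 32.9% lower and 23.9% higher beyond 2-fold, and the counts of this list lie near them. The highest member was the zinc finger gene btd (4.53 ± 0.19, and 0.65 with the pair), which is also counted among the neuroblast genes. Abd-B, of the posterior abdomen, was at 9.94 to 12.9 CPM in eye-brain, 7.11 and 9.23 CPM in the pair, and 44.5 to 52.1 CPM in embryos (-2.11 ± 0.12, adjusted p = 1.7e-08). Ubx, of the posterior thorax, was at 14.8 to 19.0 CPM in eye-brain and 50.2 to 57.3 CPM in embryos (-1.72 ± 0.11). With the pair Ubx was lower by -1.03, not beyond 2-fold. Both Hox genes were therefore detected in every eye-brain library. eve, which in late embryos marks a set of neurons and heart precursors, was at 1.70 to 1.97 CPM in eye-brain, 0.0576 and 0.0902 CPM in the pair, and 23.1 to 33.2 CPM in embryos. lab, of the head and midgut, was lower by -1.76 ± 0.09 (-4.08 with the pair).

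The Fat, Dachsous and Hippo pathway, the subject of the series, was higher beyond 2-fold for 15 of 28 members tested and lower for 2 (median 1.19; 11, 5 and 0.70 with the FtICD-table pair). ft itself (FBgn0001075, chromosome 2L, 4198404 to 4221796) was at 93, 84.5 and 95.5 CPM in eye-brain, 129 and 140 CPM in the pair, and 43.5, 29.7, 31.2 and 29.5 CPM in embryos. The groups did not overlap, and the log2 fold change was 1.44 ± 0.13 (adjusted p = 1.2e-06; 2.06 with the pair). ds, the cadherin ligand of Fat, was at 141, 151 and 157 CPM in eye-brain, 59.4 and 54.1 CPM in the pair, and 16.1 to 18.2 CPM in embryos (3.13 ± 0.08; 1.79 with the pair). Further downstream, ex, an upstream activator of the Hippo kinase, was at 120 to 151 CPM in eye-brain and 22.1 to 26.8 CPM in embryos (2.53 ± 0.10). hpo, the kinase itself, was at 96.7 to 103 CPM in eye-brain and 19.6 to 26.5 CPM in embryos (2.12 ± 0.10), and its exons overlap those of Rep. dco, a casein kinase that acts on Fat, was at 223 to 257 CPM in eye-brain, 26.1 and 25.2 CPM in the pair, and 20.1 to 23.8 CPM in embryos (3.48 ± 0.09; 0.30 with the pair). kibra, an upstream activator, was lower, at 27.4 to 27.7 CPM in eye-brain and 141 to 164 CPM in embryos (-2.48 ± 0.08, and -2.10 with the pair). The other lower member was chinmo, described above, which is counted both in this list and among the neuroblast genes. The target Diap1, an inhibitor of cell death, was at 417 to 449 CPM in eye-brain and 396 to 447 CPM in embryos, with a log2 fold change of -0.00 ± 0.08 (adjusted p = 1.0), and 0.71 with library totals only.

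Genes of sex determination and dosage compensation were higher beyond 2-fold for 8 of 15 members tested and lower for none (median 1.29; 7, 1 and 0.90 with the FtICD-table pair). fru, which builds male-specific circuits in the nervous system, was at 80.6 to 102 CPM in eye-brain and 4.70 to 6.25 CPM in embryos (4.13 ± 0.12). dsx, which directs sexual development of body tissues, was at 11.4 to 15.6 CPM in eye-brain and 0.687 to 0.827 CPM in embryos (4.18 ± 0.20), and its exons overlap those of lds. msl-2, the male-limiting subunit of the dosage compensation complex, was higher by 2.22 ± 0.13. The male-specific RNA lncRNA:roX1, which shares exon positions with ec, was at 1434, 1575 and 1395 CPM in eye-brain, 516 and 870 CPM in the pair, and 502 to 639 CPM in embryos. lncRNA:roX2 was at 27.2, 41.2 and 29.5 CPM in eye-brain and 30.4 to 37.6 CPM in embryos, with a log2 fold change of 0.01 ± 0.15 (adjusted p = 0.96). The white gene w, mutant in all these animals, was at 0 to 0.246 CPM in eye-brain, 7.20 and 2.16 CPM in the pair, and 12.8 to 23.4 CPM in embryos.

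Several of the highest fold changes fell outside the lists. mamo, a zinc finger gene, was at 330, 525 and 418 CPM in eye-brain, 654 and 1039 CPM in the FtICD-table pair, and 0.687 to 0.867 CPM in embryos (9.04 ± 0.20, adjusted p = 2.5e-11). nw was at 874 to 1065 CPM in eye-brain and 2.09 to 12.2 CPM in embryos (7.44 ± 0.43). The long non-coding lncRNA:noe was at 1197 to 1487 CPM in eye-brain and 8.80 to 11.5 CPM in embryos (7.05 ± 0.13). Myo81F, an unconventional myosin gene, was higher by 7.24 ± 0.28 and Amun by 6.08 ± 0.12. The FtICD-table pair gave 10.09 for mamo, 7.35 for nw, 8.50 for lncRNA:noe, 7.44 for Myo81F and 3.62 for Amun.

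Within groups, spread was low for most genes, with a biological coefficient of variation of 14.3% in eye-brain and 12.2% in embryos. Among genes averaging 50 CPM or more, the widest spread in eye-brain belonged to Hsp70Bb, Hsp70Ab, nAChRalpha7, mt:CoIII and Gat. nAChRalpha7, an acetylcholine receptor subunit, was at 60.9, 150 and 84.4 CPM in eye-brain, highest in replicate 2. Gat, the GABA transporter of glia, was at 98.9, 41.6 and 93 CPM, lowest in the same replicate. In embryos it belonged to Hsp70Ab, Jon99Fi, Osi7, Osi6 and CycB.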

How the data were processed

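RNA was extracted with ReliaPrep (RIN above 8), amplified from 10 ng with the SMARTer Ultra Low kit, which does not mark strand, and read as 150-base pairs, per the labels' protocols. The authors deposited expected counts per gene (34.9% of values above 0 were not whole, tolerance 1e-06). Salmon 1.80, Trimmomatic 0.33, FastQC 0.10, edgeR and the build dm6 are listed, per the submitters' processing notes; settings are not given in the sources used here. Salmon counts depend on how reads shared by similar transcripts are divided.

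Expected counts were rounded. Of 17208 genes, 46 ribosomal RNA genes were set aside. edgeR 4.0.16 (R 4.3.3) was used with TMM scaling, filterByExpr (minimum count 10), the quasi-likelihood test and its form for changes beyond 2-fold, with Benjamini-Hochberg adjustment at 0.05. DESeq2 1.42.0 was an alternative. The biological coefficient of variation was 13.0%. Counts were simulated for eye-brain over embryo (11679 genes), with few genes changed. The plain test recovered 64.2%, 88.1% and 97% of genes changed 2-, 4- and 8-fold. The test beyond 2-fold was passed by 0%, 74.6% and 93.9% of them. In the data most genes were called, so these shares need not hold there. Coordinates are from Ensembl 115 (BDGP6.54) and placed 17037 genes. Replicates differed beyond counting noise in all 9 pairs. P-values measure the spread between these libraries, since nothing says that they came from separate animals.

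Named genes were the most changed of each of 40 lists (up to 5 each way, then up to 3 of the highest level), the 15 highest and 15 lowest of all genes at 50 CPM or more, the 5 most spread in each group, the cell type markers, and ft, w, lncRNA:roX1 and lncRNA:roX2; the text names a subset. Members and lists were chosen with earlier results of these data known. A fold against a group at 0 counts uses a floor of 3 counts over the group, and ratios have exact 95% intervals; both cover counting error only. Alternatives were other scalings, no filter, ribosomal RNA genes kept, a replicate block, each replicate left out, and the eye-brain pair of the FtICD table.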

Additional observations from a re-analysis of the deposited data

Results flagged for a closer look

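In 10 of 167 genes examined for this, 1 of the 4 embryo libraries lay further from the other 3 than Dixon's 95% critical value for 4 samples allows, and chance alone gives about 1 in 20. Embryo replicate 1 stood apart for 5 genes. It held 43.5 CPM of ft, against 29.5 to 31.2 CPM in the other embryos, and 37.6 CPM of lncRNA:roX2, against 30.4 to 31.2 CPM. It was low for EAChm at 902 CPM (1208 to 1257 CPM in the others), for nrv2 at 461 CPM (579 to 594 CPM) and for vkg at 1168 CPM (1486 to 1497 CPM). Embryo replicate 2 stood apart for 3 genes, with 6.81 CPM of Cenp-C (3.75 to 3.91 CPM in the others), 557 CPM of Muc26B (463 to 476 CPM) and 4.04 CPM of Arr1 (4.91 to 4.93 CPM). Replicate 3 held 1.37 CPM of rod (1.12 to 1.16 CPM in the others), and replicate 4 held 9.31 CPM of sev (8.56 to 8.62 CPM).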

How the results depend on the processing

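The count of genes beyond 2-fold and higher in eye-brain was 4478 with library totals only, against 2796 with TMM, and this was the single count over all genes that moved by over 1.5 times. The replicate numbers did not pair the libraries (correlations of -0.0435, 0.0728 and -0.0222), and a replicate block gave 9877 calls, against 10160 without it. Leaving out each replicate in turn gave 9804 to 10208 calls and 6365 to 6678 genes beyond 2-fold. With the eye-brain pair of the FtICD table the log2 fold change turned for mira (-3.23), so (-2.57), hth (1.25), Syngr (-0.12), brp (-0.44), Hsc70-4 (-5.79) and mt:ND1 (0.085). With library totals only it turned for hth (0.39), nrv2 (0.44) and Diap1 (0.71), and without eye-brain replicate 1 for Hsp70Bb (-0.15; the values without 1 replicate ranged up to 2.37, without embryo replicate 3). The cause was not tested. The medians of 8 of 40 lists changed sign under some scaling: ecdysone response, fat body, glia, Hox, ion channels, phototransduction, ribosome biogenesis and transmitter genes.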
